A study of Mus musculus with 10 samples.

Results

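The clustered histone genes were taken as every gene in the deposited RNA-seq tables whose symbol starts with Hist1h, Hist2h, Hist3h or Hist4h, which gave 62 of the 16771 genes listed. They fell into the 5 histone families as 6 genes of the linker histone H1, 16 of H2A, 17 of H2B, 10 of H3 and 13 of H4. By symbol, 54 of the 62 belonged to Hist1 on chromosome 13, 5 to Hist2 on chromosome 3, 2 to Hist3 on chromosome 11 and 1, Hist4h4, stood on chromosome 6. Among the 54, Hist1h2al, counted with H2A, is annotated as a processed pseudogene. It lies at chr13:51202727-51203065, while the 6 H1 genes lie within chr13:21779883-23764406. At least 1 RPKM (reads per kilobase of gene and per fixed number of reads) in at least 2 libraries was reached by 60 of the 62. The other 2 were H2B genes, the testis form Hist1h2ba with 0 to 4 reads in any library and Hist1h2br with 0.248 to 0.787 RPKM.

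Histone proteins package DNA into nucleosomes, whose core holds H2A, H2B, H3 and H4, while H1 binds the linker between them. The clustered genes supply most of this protein while DNA is being copied, and their messages end in a conserved stem-loop that is bound by the protein Slbp, in place of a poly(A) tail. Selection of RNA on poly(A) therefore misses most of them. Here total RNA was depleted of ribosomal RNA instead, so transcripts without a tail were measured.

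The 10 libraries came from bone marrow of C57BL/6 mice, 2 for each of 5 groups. In 4 groups the cells were haematopoietic stem and progenitor cells (HSPC), the lineage-negative cells left by a magnetic depletion kit. WT HSPC were wild type, Npm1c HSPC carried Npm1flox-cA/+;Mx1-Cre+, Flt3-ITD HSPC carried Flt3ITD/+ (an internal tandem duplication in 1 copy of the receptor gene Flt3), and DM HSPC carried Npm1flox-cA/+;Flt3ITD/+;Mx1-Cre+. WT Neu were wild-type neutrophils from a magnetic isolation kit. In these libraries 25 G2 and mitosis genes summed to 275.0 and 281.9 RPKM, against 874.6 and 880.8 in WT HSPC. Whether they held dividing cells was not tested. Mx1-Cre is driven by an interferon-inducible promoter that is not restricted to blood cells. It was labelled in Npm1c and DM but not in WT or Flt3-ITD HSPC, so the recombinase and the Npm1 allele cannot be told apart. Ages and the agent that induced Cre are not given in the labels used here.

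The denominators of the tables corresponded to 40783015 to 57824373 reads per library, of which 0.505% to 1.46% fell on the clustered histone genes. The 15 late neutrophil genes listed summed to 101800 and 102100 RPKM in the WT Neu libraries, against 63.8 to 424.2 in the 8 HSPC libraries. The 12 markers of HSPC listed, among them Kit and Cd34, summed to 51.5 RPKM or more in every HSPC library and to 15.6 to 15.9 in neutrophils. In DM HSPC most of the sum came from Cd48 (63.9 and 64.8 RPKM against 18.8 and 18.6 in WT HSPC) and Flt3 (44.2 and 44.3 against 5.35 and 5.22). Kit (8.70 and 8.65 against 14.9 and 14.5) and Cd34 (3.26 and 3.37 against 15.3 and 15.7) were lower there. By the test described below, 3 of 8 markers tested rose and 4 fell in DM against WT HSPC, where 23.9% and 58.9% of all genes did so. In neutrophils 2 of 9 rose and 6 fell, where 28.4% and 62.8% did so. In DM HSPC the 8 monocyte and macrophage genes summed to 742.4 to 747.5 RPKM against 120.6 to 120.9 in WT HSPC, most of it from Mpeg1 (580.4 and 578.2 against 22.5 and 20.6), while F13a1 was lower (5.31 and 5.56 against 40.6 and 40.5) and Csf1r was at 8.001 and 8.074 against 8.99 and 8.96. The 6 primary granule genes summed to 95.9 to 96.3 RPKM in DM against 1013 to 1060 in WT HSPC, and to 717.8 and 1698 in the 2 Flt3-ITD libraries. Late neutrophil genes summed to 271.3 to 314.6 in Flt3-ITD and 92.3 to 424.2 in Npm1c against 63.8 to 83.3 in WT HSPC. Y-linked genes were above 1 RPKM in sum in 1 Npm1c and 1 Flt3-ITD library only. Levels of marker genes for other cell types thus differed between DM and WT HSPC. In the single mutants some also differed widely between the 2 libraries of a genotype. The part of such cells in the results below was not tested.

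The sequence that gives these messages their own form of 3′ end is shown first, since it is the reason that the library type matters. The 16-base stem-loop motif, searched on the transcribed strand of GENCODE M21 transcripts, was found in 39 of the 62 genes (4 H1, 9 H2A, 10 H2B, 7 H3 and 9 H4) and in 8 of 55279 other genes. Of the 8, Hist2h2aa1, Hist2h2aa2 and Hist2h3c1 have symbols of the clusters but were not listed in the deposited RNA-seq tables. The 8 also included H2afx, a histone gene outside the clusters, and the genes Trim17 and Gm20634, whose transcripts share sequence with members named below. For the other 23, no match says only that these letters are not in the transcript models. In the lines below the capitals mark the 4 bases of the loop.
H1, H2A, H2B and H3, 23 genes: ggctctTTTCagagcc
H1, H2B and H3, 6 genes: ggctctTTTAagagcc
H2A, 1 gene (Hist2h2ac): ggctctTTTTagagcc
H4, 7 genes: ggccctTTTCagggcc
H4, 2 genes (Hist1h4i and Hist2h4): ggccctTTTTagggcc
The stem of all 9 H4 genes with the motif held a different base pair from the stem of the other families.

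Promoters are shown for the member of H4, H2B and H1 with the highest level and for a pair of H4 genes that the results below turn on. RefSeq (GRCm38.p6) promoters, 250 bases before to 50 after each start, were matched to 56 of the 62 genes. Both strands were searched for ATTTGCAT (the octamer bound by Oct1), for the box letters TATAAA, near which transcription often starts, for the box letters CCAAT, and for GGTCCG, letters of the H4 element bound by Hinfp that were added after the sequences were seen. None of these 4 motifs contains another. In the lines below the 130 bases before the start are given 5′ to 3′ on the gene's strand, with motif matches on either strand in capitals.
Hist1h4d, chr13:23581438-23581567, plus strand: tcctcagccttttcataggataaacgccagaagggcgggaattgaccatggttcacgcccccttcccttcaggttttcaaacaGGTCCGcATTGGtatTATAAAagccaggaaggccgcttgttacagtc
Hist1h2bb, chr13:23746604-23746733, plus strand: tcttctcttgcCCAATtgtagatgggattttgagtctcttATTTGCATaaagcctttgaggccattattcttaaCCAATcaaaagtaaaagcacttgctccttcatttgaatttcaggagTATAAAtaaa
Hist1h1a, chr13:23763538-23763667, plus strand: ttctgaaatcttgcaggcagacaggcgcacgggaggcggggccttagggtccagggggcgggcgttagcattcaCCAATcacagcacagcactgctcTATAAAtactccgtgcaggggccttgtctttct
Hist1h4m, chr13:21811616-21811745, plus strand: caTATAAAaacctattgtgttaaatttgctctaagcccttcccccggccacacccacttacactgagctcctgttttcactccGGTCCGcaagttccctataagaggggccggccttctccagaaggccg
Hist1h4n, chr13:21832198-21832327, minus strand: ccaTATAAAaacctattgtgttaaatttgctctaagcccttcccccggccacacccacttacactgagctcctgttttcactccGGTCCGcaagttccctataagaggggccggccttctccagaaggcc
The octamer was found in 6 of 15 H2A and 5 of 15 H2B promoters and in none of the 6 H1, 8 H3 and 12 H4 promoters, against 1.75% of all 27025 promoters in the table. GGTCCG was found in 11 of 12 H4 promoters, 1 of 15 H2B and 1 of 8 H3 promoters, against 8.39% of all. CCAAT was found in all 44 H1, H2A, H2B and H3 promoters matched but in 3 of 12 H4 promoters, against 37.9% of all. TATAAA was found in 33 of the 56, against 14.2% of all. The families thus differed in the letters of their promoters, and H2A and H2B genes often lay close by, since 11 pairs of an H2A and an H2B gene pointed away from each other with starts 176 to 302 bases apart. The promoter windows of Hist1h4m and Hist1h4n differed by an offset of 1 base in the annotated start and by 1 of 299 aligned bases.

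Clustered histone messages were among the most abundant transcripts of HSPC. They made up 13.9% and 14.2% of the summed RPKM of all listed genes in the WT HSPC libraries, a share of a length-scaled sum and not of reads. In WT HSPC, 58 genes were at or above 1 RPKM in both libraries, 45 were at or above 100, and the median gene had 330.5 RPKM. Both libraries reached 100 RPKM for 43 genes in Npm1c, 43 in Flt3-ITD and 40 in DM HSPC, and for 35 genes in WT Neu, where the median gene had 117.4. Over all 10 libraries, 42 genes had a mean above 100 RPKM and 3 above 1000.

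The highest member was Hist1h4d, an H4 gene, which ranked 8 among all listed genes by mean level. Its RPKM was 2143 and 2387 in WT, 2737 and 2579 in Flt3-ITD, 2432 and 2190 in Npm1c, 918.1 and 937.9 in DM HSPC, and 863.8 and 804.1 in WT Neu. The DM and neutrophil libraries all lay below the other 6, with no overlap. The linker histone Hist1h1a came next, at 1455 and 1523 in WT, 1583 and 1741 in Flt3-ITD, 1440 and 1470 in Npm1c, 509.5 and 509.3 in DM HSPC, and 254.5 and 256.0 in WT Neu. In neutrophils it stood lower than in any HSPC group. Hist1h2bb, the highest H2B gene, had 1393 and 1503 RPKM in WT, 1564 and 1557 in Flt3-ITD, 1192 and 1105 in Npm1c, 629.3 and 597.3 in DM HSPC, and 558.8 and 558.0 in WT Neu. The Npm1c libraries lay below the WT libraries for this gene, and the DM and neutrophil libraries below both.

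The next 7 genes by mean level were also low in DM HSPC and neutrophils. Hist1h2bn, an H2B gene, had 1122 and 1202 RPKM in WT, 1201 and 1259 in Flt3-ITD, 1018 and 936.9 in Npm1c, 537.0 and 525.6 in DM HSPC, and 442.1 and 431.7 in WT Neu. Hist1h4c (H4) had 892.5 and 1059 in WT, 1109 and 1012 in Flt3-ITD, 895.8 and 812.6 in Npm1c, 427.8 and 422.2 in DM HSPC, and 423.6 and 393.2 in WT Neu. Hist1h4k (H4) had 1033 and 1084 in WT, 1027 and 941.8 in Flt3-ITD, 777.8 and 719.7 in Npm1c, 347.9 and 363.6 in DM HSPC, and 422.8 and 387.5 in WT Neu. For Hist1h4k the DM libraries were below the neutrophil libraries. Hist1h2ak (H2A), whose start lies 296 bases from that of Hist1h2bn, had 813.5 and 816.3 in WT, 931.2 and 908.5 in Flt3-ITD, 769.1 and 697.4 in Npm1c, 396.6 and 411.3 in DM HSPC, and 305.0 and 305.1 in WT Neu. Hist1h4f (H4) had 802.5 and 871.7 in WT, 945.9 and 866.9 in Flt3-ITD, 655.9 and 612.0 in Npm1c, 383.9 and 374.0 in DM HSPC, and 397.5 and 387.4 in WT Neu. Hist1h2bg (H2B) had 801.8 and 814.7 in WT, 883.4 and 895.8 in Flt3-ITD, 731.0 and 652.4 in Npm1c, 461.6 and 439.2 in DM HSPC, and 251.1 and 246.2 in WT Neu. Unlike Hist1h4k, it stood higher in DM HSPC than in neutrophils. Hist1h4h (H4) had 768.8 and 835.8 in WT, 881.5 and 840.4 in Flt3-ITD, 697.5 and 658.4 in Npm1c, 301.7 and 302.1 in DM HSPC, and 325.3 and 297.0 in WT Neu. In all 7 genes the DM and neutrophil libraries lay below every WT, Npm1c and Flt3-ITD library.

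**Figure D1:**
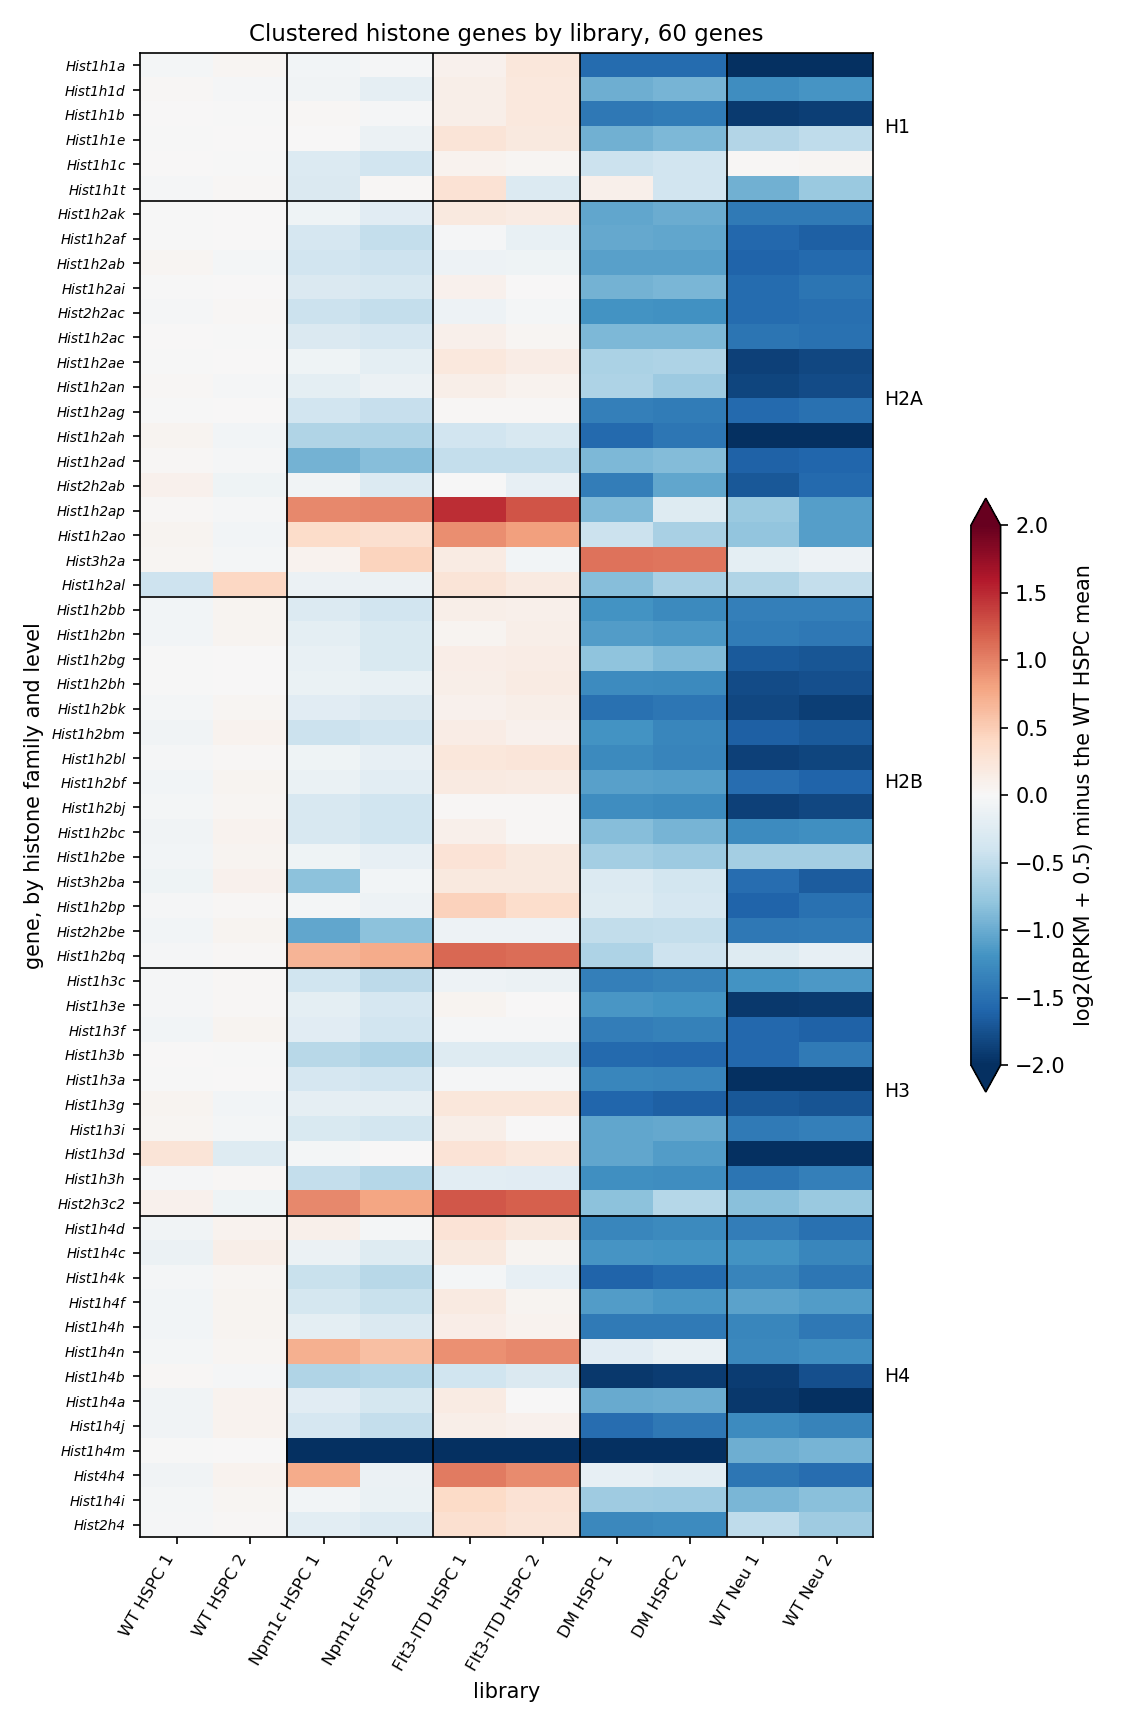
Level of the 60 clustered histone genes that passed the minimum of 1 RPKM in 2 libraries. Rows are genes, ordered by family and then by mean level; columns are the 10 libraries; colour gives log2(RPKM + 0.5) minus the mean of the 2 WT HSPC libraries, with colours ending at 2 in either direction. The DM HSPC and WT Neu columns are blue for nearly every gene, with Hist3h2a red in DM HSPC and Hist1h4m dark blue in all 3 mutant groups.

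Summed over all members, the level was 25775 and 26759 RPKM in WT HSPC, 27958 and 27605 in Flt3-ITD, 22852 and 21514 in Npm1c, 11412 and 11388 in DM HSPC, and 9410 and 9326 in WT Neu. The DM sum was 2.30-fold and the neutrophil sum 2.80-fold below that of WT HSPC, while the Npm1c sum was 0.845 and the Flt3-ITD sum 1.06 times WT. The 2 libraries of each group lay close together against the DM and neutrophil differences, but the Flt3-ITD difference was of the order of the gap between the WT libraries. With 1 pair of libraries per group, an exact permutation test of the sums cannot pass 0.05, so tests were made gene by gene. In bulk RNA, fewer cells of a type and less histone RNA per cell cannot be told apart.

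The families kept their proportions. H4 made up 28.7% of the summed level in WT HSPC, 29.0% in Flt3-ITD, 29.1% in Npm1c, 26.6% in DM HSPC and 31.6% in WT Neu. H2B made up 24.6% to 26.9% in the 5 groups, H2A 14.9% to 18.0%, H3 14.3% to 15.4% and H1 14.1% to 15.9%. Against the more than 2-fold loss in DM HSPC, each family's share moved by at most a few percentage points. The widest shift in DM HSPC was that of H2A, from 15.8% to 18.0%.

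**Figure D2:**
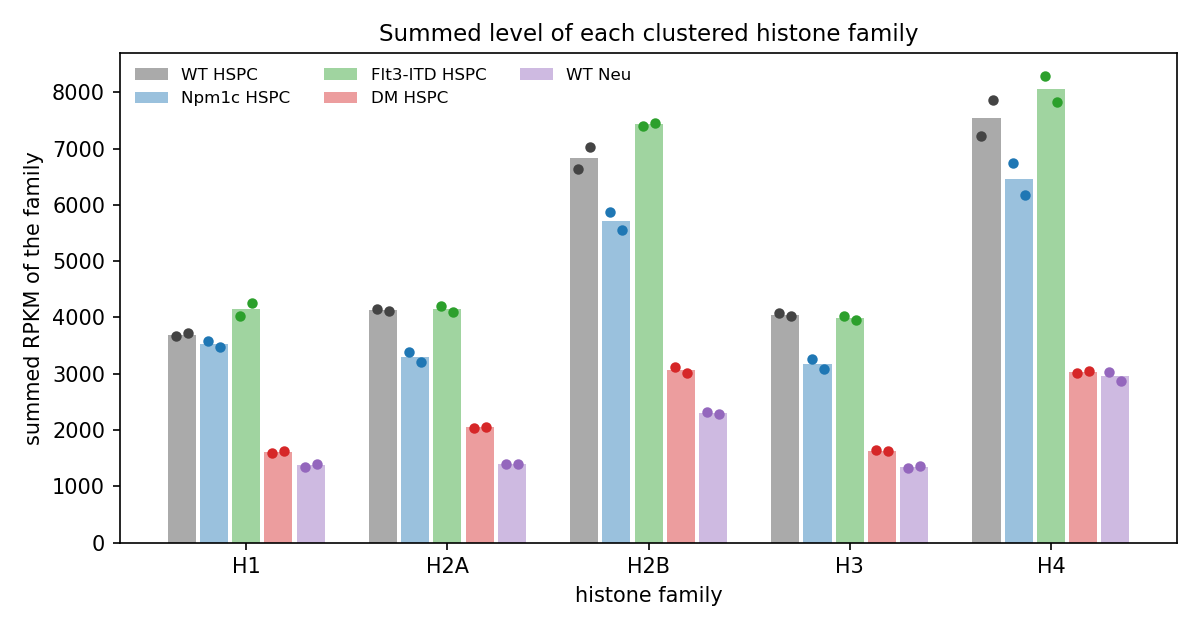
Summed RPKM of each clustered histone family. Bars are means of 2 libraries per group and dots the single libraries; for H4 the dots are 7218 and 7868 in WT HSPC and 3014 and 3055 in DM HSPC. All 5 families are lower in DM HSPC and WT Neu than in the other 3 groups.

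The double mutant was the HSPC group in which clustered histone messages were low. Of 60 genes tested against WT HSPC, 56 fell and 1 rose (limma on log2(RPKM + 0.5), Benjamini-Hochberg adjusted p under 0.05 over all 9702 genes tested). By the same rule 58.9% of all genes tested fell and 23.9% rose. Because the median tested gene itself was 0.34 lower on the log2 scale in DM HSPC, changes are given relative to that median from here on, whereas a gene is said to have risen or fallen by its limma test on unscaled RPKM. The median member changed by -0.75 relative to the median gene, on a scale where the middle 90% of all genes spanned -0.92 to 2.36. With median-of-ratios scaling, which sets the median gene level between libraries, 50 members fell and 1 rose, against 39.8% and 38.1% of all genes. By family, 5 of 6 H1, 15 of 16 H2A, 14 of 15 H2B, 10 of 10 H3 and 12 of 13 H4 genes fell, with median changes of -0.60, -0.58, -0.76, -0.94 and -0.94.

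Apart from Hist1h4m, described below with its near-copy, the largest falls were those of Hist1h4b and Hist1h3g. Hist1h4b, an H4 gene, went from 472.8 and 457.6 RPKM in WT to 121.2 and 123.8 in DM HSPC, with 354.7 and 382.2 in Flt3-ITD, 306.6 and 313.2 in Npm1c and 124.3 and 137.0 in WT Neu. Its libraries did not overlap between any of the 4 HSPC groups, and its change in DM HSPC was -1.58 ± 0.06 (SE; limma adjusted p = 2.21e-07). Hist1h3g, an H3 gene, went from 358.8 and 331.9 to 114.5 and 110.7, a change of -1.27 ± 0.05 (SE; limma adjusted p = 4.64e-07). In Flt3-ITD HSPC the same gene stood above WT, at 403.3 and 404.2 RPKM, with 304.3 and 305.8 in Npm1c and 106.7 and 104.4 in WT Neu. Among the smallest falls was that of Hist1h2bp, an H2B gene, with 20.3 and 20.9 RPKM in WT, 28.6 and 26.4 in Flt3-ITD, 20.1 and 19.1 in Npm1c, 17.2 and 16.3 in DM HSPC, and 6.43 and 7.02 in WT Neu. Its DM change was 0.04 relative to the median gene, and its fall was lost with median-of-ratios scaling (limma adjusted p = 0.441). Hist1h4d changed by -0.95 ± 0.08 and Hist1h1a by -1.21 ± 0.06 (SE; limma adjusted p = 6.74e-06 and 1.12e-06).

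Hist3h2a was the only member that rose in DM HSPC against WT, and it rose against all 3 other HSPC groups. This H2A gene (chr11:58954685-58956830) had 2.31 and 2.16 RPKM in WT, 2.56 and 2.13 in Flt3-ITD, 2.36 and 3.21 in Npm1c, 5.29 and 5.23 in DM HSPC, and 1.89 and 2.04 in WT Neu. Both DM libraries, with 504 and 543 reads, lay above all others. The change against WT was 1.41 ± 0.13 (SE; limma adjusted p = 1.58e-04). Its transcript shares 31.5% of its 50-base words with the neighbouring gene Trim17, which was itself at 0.104 to 0.364 RPKM in all libraries. The other Hist3 gene, the H2B gene Hist3h2ba, had 28.8 and 32.8 RPKM in WT and 25.3 and 23.6 in DM HSPC, a relative change of 0.01 ± 0.22 (limma adjusted p = 0.198). The remaining members that did not pass the test were Hist1h1t, the testis H1, at 0.99 to 1.61 RPKM in WT and DM HSPC, and Hist4h4.

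**Figure D3:**
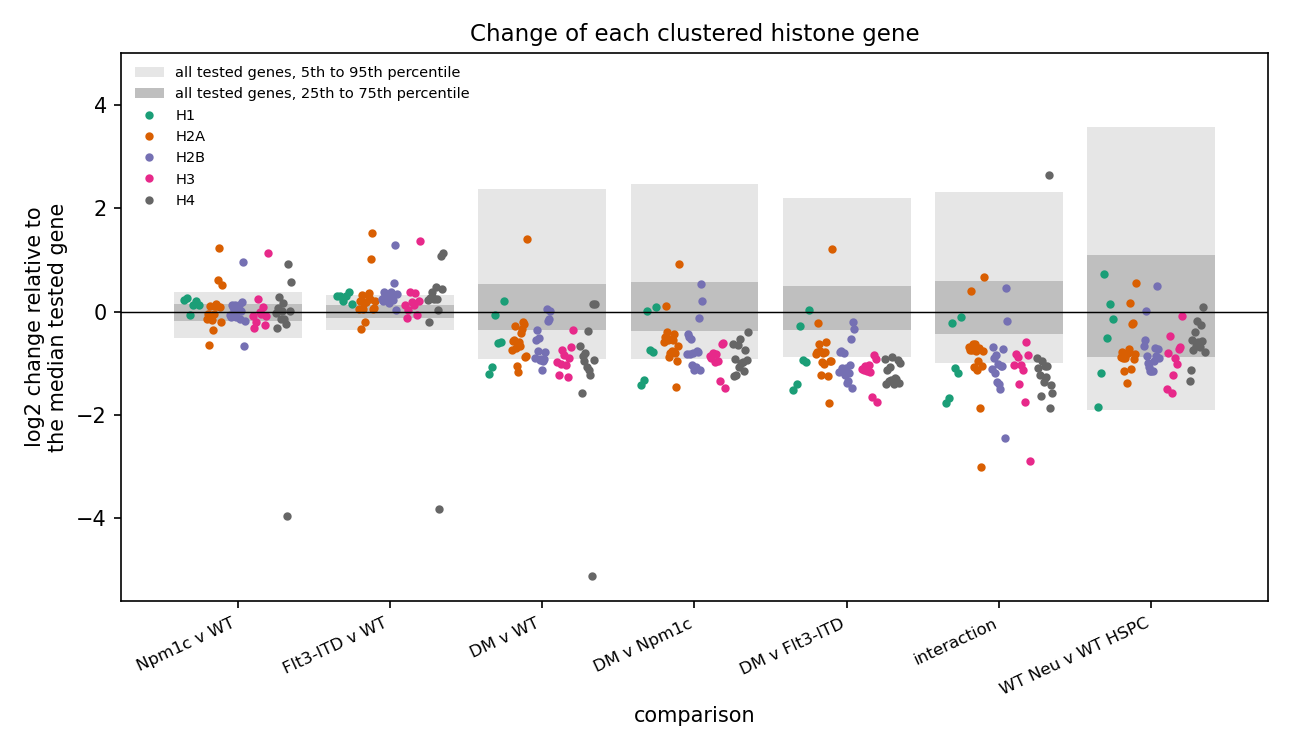
Change of each clustered histone gene tested, in 7 comparisons, as log2 change relative to the median tested gene. Dots are genes coloured by family; grey bands span the 5th to 95th and the 25th to 75th percentile of all genes tested. In the 3 comparisons of DM HSPC with another group the median members lie at -0.75, -0.79 and -1.03, while Hist3h2a lies at 1.41, 0.91 and 1.20.

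Set against the single mutants, the double mutant differed from both. Against Npm1c HSPC, 53 of 60 members fell and 2 rose, while 43.0% and 34.4% of all genes did so, and the median member changed by -0.79. Against Flt3-ITD HSPC, 57 fell and 1 rose, while 48.8% and 28.6% of all genes did so, and the median member changed by -1.03. The 2 risers against Npm1c were Hist3h2a (0.91 ± 0.13) and Hist2h2be, an H2B gene (0.53 ± 0.08, SE; limma adjusted p = 7.67e-04 and 1.96e-03). Hist2h2be had 3.77 and 4.13 RPKM in WT, 3.64 and 3.63 in Flt3-ITD, 1.67 and 2.02 in Npm1c, 2.65 and 2.70 in DM HSPC, and 1.14 and 1.16 in WT Neu. It was thus lowest among HSPC in the single Npm1c mutant. The 3 largest falls against Npm1c were Hist2h3c2 (-1.48 ± 0.11), Hist1h2ap (-1.45 ± 0.19) and Hist1h1a (-1.42 ± 0.06). These comparisons share the DM libraries and are not independent of each other.

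The interaction term asks whether the DM change equals the sum of both single changes. It was below 0 and past the threshold for 52 of 60 members and above 0 for 4, against 27.6% and 39.2% of all genes tested. With median-of-ratios scaling it did so for 54 and 4, against 36.1% and 37.1%. The median member's interaction was -1.05 relative to the median gene, so DM HSPC stood lower than the sum of the single changes gives. For Hist1h1a the single changes were 0.23 in Npm1c and 0.30 in Flt3-ITD HSPC (limma adjusted p = 0.668 and 0.0991), the DM change was -1.21 and the interaction -1.76 ± 0.09 (SE; limma adjusted p = 7.57e-06). These p-values test the unscaled changes, not those relative to the median gene, as do the others given for the deposited scale. For Hist1h4d the interaction was -1.64 ± 0.12 (SE; limma adjusted p = 3.4e-05). The lowest interactions were those of Hist1h2ap (-3.00), Hist2h3c2 (-2.89) and Hist1h2bq (-2.45), genes that rose in both single mutants and not in DM HSPC. The 4 positive terms were those of Hist1h4m (2.63), Hist3h2a (0.67), Hist2h2be (0.45) and Hist1h2ad (0.40).

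In Npm1c HSPC the members as a whole kept pace with the median gene. Against WT, 37 of 60 fell and 5 rose, while 58.1% of all genes fell and 2.49% rose, and the median member changed by 0.01 relative to the median gene, whose own change was -0.26. With median-of-ratios scaling 8 members fell and 11 rose, against 20.1% and 18.3% of all genes. The 5 that rose were Hist1h2ap, Hist1h2ao, Hist1h2bq, Hist2h3c2 and Hist1h4n, each with under 50% of its sequence to itself, as described below. Hist1h2ad, an H2A gene, fell from 120.6 and 117.0 RPKM in WT to 61.2 and 65.4 in Npm1c, a relative change of -0.64 ± 0.05 (SE; limma adjusted p = 2.66e-04). It had 84.9 and 85.5 in Flt3-ITD, 63.2 and 65.1 in DM HSPC, and 38.4 and 39.4 in WT Neu. Hist2h2be fell by 0.66 relative to the median gene (SE 0.08; limma adjusted p = 6.38e-04). In the same comparison all 8 monocyte and macrophage genes fell, with a median of -0.73, and the part of such cells was not tested.

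In Flt3-ITD HSPC the members lay slightly above the median gene. Against WT, 14 of 60 rose and 6 fell, while 1.86% of all genes rose and 31.3% fell, and the median member changed by 0.24 relative to a median gene that changed by -0.14. With median-of-ratios scaling 33 rose and 2 fell, against 8.37% and 9.62% of all genes. The number that rose was 6 without the first WT library and 8 without the second, so its size rests on those libraries. In the same comparison 5 of 14 late neutrophil genes tested rose and 0 fell, with a median of 1.38, and the part of such cells was not tested. Hist4h4, with most of its sequence to itself, had 47.2 and 52.6 RPKM in WT and 102.6 and 96.3 in Flt3-ITD HSPC, a relative change of 1.13 ± 0.24 (SE; limma adjusted p = 0.021, and 0.117 or 0.088 without the first or second WT library). Hist1h1e, a linker histone, had 534.7 and 542.1 RPKM in WT and 643.7 and 619.5 in Flt3-ITD HSPC, a relative change of 0.37 ± 0.06 (SE; limma adjusted p = 0.0277). Its level was 538.6 and 495.1 in Npm1c, 277.7 and 289.9 in DM HSPC, and 357.7 and 377.1 in WT Neu. Hist1h2ad and Hist1h2ah, both H2A genes, fell by 0.33 and 0.21 relative to the median gene (limma adjusted p = 2.89e-03 and 9.08e-03), and the fall of Hist1h2ah was lost with median-of-ratios scaling (adjusted p = 0.170). Hist1h2ah had 171.3 and 159.3 RPKM in WT, 126.7 and 132.6 in Flt3-ITD, 108.3 and 107.5 in Npm1c, 55.7 and 60.7 in DM HSPC, and 36.6 and 40.5 in WT Neu. The 3 comparisons of mutants with WT share the 2 WT libraries, and no measure of likeness between them is given.

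Some members differed between the 2 libraries of a group by more than the rest. Among genes with at least 200 reads, the median ratio between the 2 libraries was 1.02 to 1.06 in the 5 groups. The widest gaps were those of Hist4h4 in Npm1c HSPC (83.2 and 46.0 RPKM), of Hist3h2ba (17.2 and 29.5) and Hist3h2a (2.36 and 3.21) in the same group, and of Hist1h3d in WT HSPC (348.6 and 245.7). The Hist4h4 values in Npm1c HSPC rest on 12840 and 7073 reads. Its relative change in Npm1c HSPC, 0.57 ± 0.24, did not pass the test (limma adjusted p = 0.285).

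An H4 gene stood apart in all mutant groups. Hist1h4m (chr13:21811746-21812147) had 281.3 and 285.6 RPKM in WT HSPC and 144.2 and 148.0 in WT Neu, but 17.7 and 17.7 in Flt3-ITD, 14.9 and 14.8 in Npm1c and 5.33 and 6.74 in DM HSPC. All 6 mutant libraries lay below all 4 wild-type libraries. The relative changes were -3.82 ± 0.09 in Flt3-ITD, -3.95 ± 0.09 in Npm1c and -5.11 ± 0.09 in DM HSPC (SE; limma adjusted p = 1.29e-05, 8.52e-06 and 2.4e-08). Its near-copy Hist1h4n (chr13:21831767-21832196), whose promoter letters are shown above, moved the other way in the single mutants. It had 249.7 and 261.2 RPKM in WT, 482.9 and 498.2 in Flt3-ITD, 417.7 and 386.4 in Npm1c, 219.0 and 231.5 in DM HSPC, and 104.4 and 107.6 in WT Neu. The ratio of Hist1h4m to Hist1h4n was 1.13 and 1.09 in WT HSPC and 1.38 and 1.38 in WT Neu, and 0.0243 to 0.0382 in the 6 mutant libraries.

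The transcripts of Hist1h4m and Hist1h4n share 89.8% and 83.2% of their 50-base words, so reads of 1 can be counted for the other, and the single values are uncertain. The sum of both is less open to this. It was 530.9 and 546.8 RPKM in WT, 500.6 and 516.0 in Flt3-ITD, 432.6 and 401.1 in Npm1c, 224.3 and 238.2 in DM HSPC, and 248.6 and 255.6 in WT Neu. That is 0.943 times WT in Flt3-ITD, 0.774 in Npm1c, 0.429 in DM HSPC and 0.468 in neutrophils, next to 1.06, 0.845, 0.434 and 0.357 for all members. The sum of the pair lay slightly below WT in Flt3-ITD HSPC, where that of all members lay slightly above, and it was lowered less than that of all members in neutrophils. The division between the copies differed between wild-type and mutant libraries. How reads that map to both places were counted is not given in the sources used here, and the origin of the shift was not tested.

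Both H4 genes lie in a stretch of 30.9 kb, chr13:21806612-21837530, that holds 6 members in mirrored order, singled out after their values were seen. The other 4 are also near-copies. Hist1h2ao and Hist1h2ap, both H2A, share 93.5% and 93.1% of their 50-base words. Their sum was 9.86 and 9.22 RPKM in WT, 23.9 and 21.1 in Flt3-ITD, 16.18 and 15.998 in Npm1c, 5.72 and 6.79 in DM HSPC, and 5.21 and 3.93 in WT Neu. Hist1h2bq and Hist1h2br, both H2B, share 97.3% and 88.7%, and their sum was 1.12 and 1.18 RPKM in WT, 2.93 and 2.75 in Flt3-ITD, 1.89 and 2.00 in Npm1c, 0.526 and 0.665 in DM HSPC, and 0.918 and 0.975 in WT Neu. Both sums were thus higher in the single mutants than in WT, which the H4 pair's sum was not. Hist1h2ap alone had 5.03 and 4.82 RPKM in WT, 14.6 and 12.5 in Flt3-ITD, 10.06 and 10.13 in Npm1c, 2.43 and 4.03 in DM HSPC, and 2.75 and 2.03 in WT Neu. Hist1h2bq alone had 0.665 and 0.716 in WT, 2.14 and 2.09 in Flt3-ITD, 1.40 and 1.48 in Npm1c, 0.278 and 0.390 in DM HSPC, and 0.499 and 0.563 in WT Neu. Hist1h2ap changed by 1.23 ± 0.19 in Npm1c and 1.51 ± 0.19 in Flt3-ITD HSPC, and Hist1h2bq by 1.28 ± 0.08 in Flt3-ITD HSPC (SE; limma adjusted p = 5.1e-03, 4.48e-03 and 1.19e-03).

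Outside that stretch, Hist2h3c2, an H3 gene on chromosome 3, showed a similar order of groups. It had 3.64 and 3.16 RPKM in WT, 8.72 and 8.44 in Flt3-ITD, 7.10 and 6.19 in Npm1c, 1.70 and 2.11 in DM HSPC, and 1.68 and 1.83 in WT Neu. It shares 63.5% of its 50-base words with the gene Gm20634. Its changes were 1.14 ± 0.11 in Npm1c and 1.37 ± 0.11 in Flt3-ITD HSPC (SE; limma adjusted p = 1.17e-03 and 2.39e-03).

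**Figure D4:**
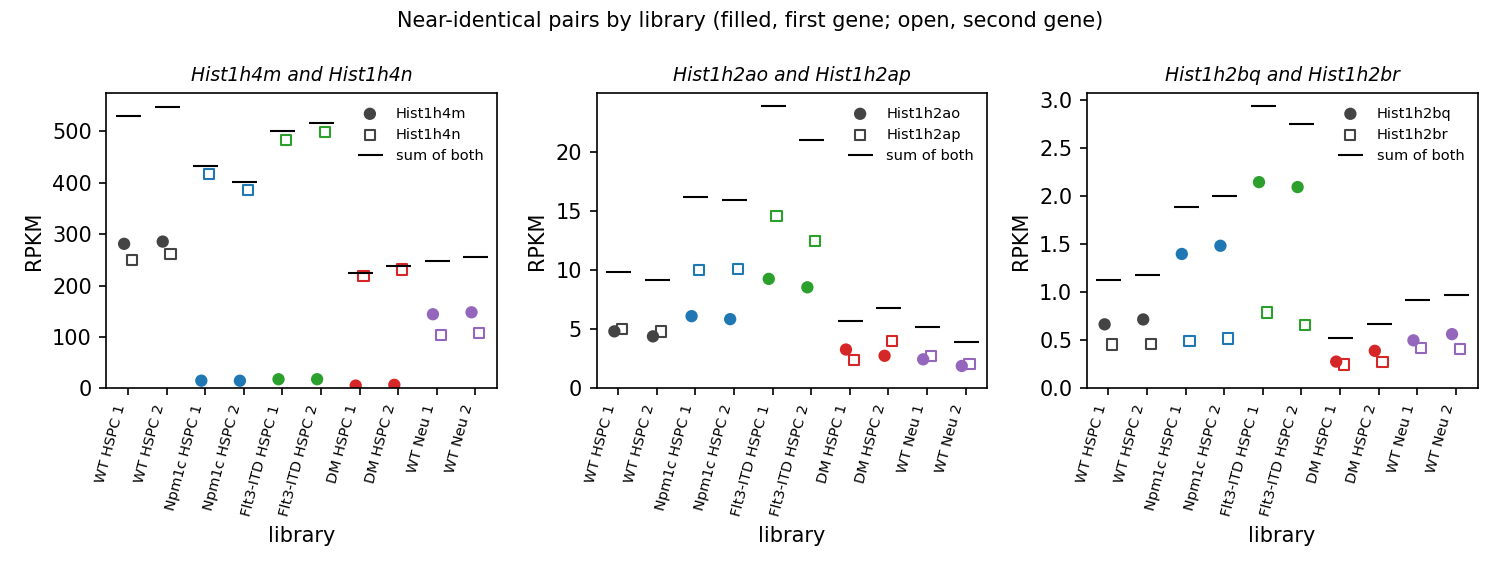
RPKM of 3 near-identical gene pairs in the 10 libraries, with the first gene filled, the second open and their sum as a bar. Hist1h4m is at 5.33 to 17.7 RPKM in the 6 mutant libraries and at 144.2 to 285.6 in the 4 wild-type libraries, while the sum of both H4 genes stays between 224.3 and 546.8 throughout.

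Near-identity is common in these genes: 30 of the 62 had under 50% of their 50-base words to themselves, and 13 had under 15%. To see which counts rest on them, the 31 tested genes with at least 50% of their words unique were counted apart from the other 29. In DM HSPC against WT, 27 of the 31 fell and 1 rose, with a median change of -0.66, and all 29 of the others fell, with a median of -0.79, where 58.9% of all genes fell. In neutrophils 29 of 31 and 29 of 29 fell, where 62.8% of all genes did. In Npm1c HSPC no gene of the first set rose and 17 fell, against 5 and 20 of the second, where 58.1% of all genes fell. In Flt3-ITD HSPC 7 of the first set rose and 0 fell, against 7 and 6 of the second, where 1.86% of all genes rose and 31.3% fell. All 5 rises in Npm1c and all 6 falls in Flt3-ITD HSPC were therefore in genes with shared sequence.

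Clustered histone genes of all 5 families were lower in neutrophils than in WT HSPC. Of 60 members tested against WT HSPC (10174 genes, 10 libraries in the fit), 58 fell and 0 rose on the deposited values, while 62.8% of all genes fell and 28.4% rose. The median gene was 0.70 lower, and the median member changed by -0.78 relative to it. That lies within the 25th to 75th percentile of all genes tested, -0.87 to 1.10. With median-of-ratios scaling 47 members fell and 6 rose, against 44.9% and 45.8% of all genes, so the direction of a few members depends on the scale. Hist1h1a fell from 1455 and 1523 to 254.5 and 256.0 RPKM, a change of -1.84 ± 0.06 (SE; limma adjusted p = 1.41e-09). The H3 genes Hist1h3d and Hist1h3a also fell, Hist1h3d by 1.57 relative to the median gene (SE 0.14; limma adjusted p = 3.85e-07) and Hist1h3a to a mean 4.60-fold lower (limma adjusted p = 7.14e-10). Hist1h3a had 414.7 and 423.4 RPKM in WT, 413.6 and 410.6 in Flt3-ITD, 332.7 and 322.2 in Npm1c, 169.0 and 168.2 in DM HSPC, and 90.1 and 92.2 in WT Neu. Hist1h3d had 348.6 and 245.7 in WT, 353.2 and 340.2 in Flt3-ITD, 285.9 and 295.1 in Npm1c, 141.8 and 134.4 in DM HSPC, and 58.7 and 62.0 in WT Neu. Some genes that fell on the deposited values lay above the median gene, among them Hist1h1e at 0.15, Hist2h4 at 0.09 and Hist1h2be at 0.02, and these 3 rose with median-of-ratios scaling. Hist1h2bq, at 0.49, did the same from under 1 RPKM. Hist2h4 had 55.0 and 56.9 RPKM in WT, 70.0 and 66.9 in Flt3-ITD, 48.5 and 46.0 in Npm1c, 22.5 and 23.1 in DM HSPC, and 39.2 and 34.0 in WT Neu. Hist1h2be had 37.9 and 40.9 in WT, 47.5 and 45.2 in Flt3-ITD, 37.1 and 35.1 in Npm1c, 24.5 and 23.7 in DM HSPC, and 24.4 and 24.3 in WT Neu. Hist1h2be was counted by the authors over 6935 bases and overlaps Hist1h1e, so these 2 genes may not be separate observations.

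The linker histones changed their mix in neutrophils and, less, in DM HSPC. Hist1h1c, an H1 subtype known to be made in non-dividing cells as well, had 252.3 and 250.5 RPKM in WT, 263.2 and 259.3 in Flt3-ITD, 207.1 and 192.2 in Npm1c, 186.5 and 192.6 in DM HSPC, and 255.6 and 257.1 in WT Neu. Its neutrophil and WT HSPC levels lay close together, with a deposited-scale change of 0.03 ± 0.05 (SE; limma adjusted p = 0.606), which is 0.73 above the median gene. As a share of the summed RPKM of the 6 H1 genes it was 6.81% in WT HSPC, 6.31% in Flt3-ITD, 5.65% in Npm1c, 11.8% in DM HSPC and 18.7% in WT Neu. Hist1h1a went from 40.3% in WT HSPC to 31.6% in DM HSPC and 18.6% in WT Neu. Hist1h1e went from 14.6% to 17.6% and 26.8%, Hist1h1d from 18.8% to 22.2% and 21.8%, and Hist1h1b from 19.5% to 16.7% and 14.1%. For Hist1h1a and Hist1h1c the DM and neutrophil shares did not overlap those of the other groups.

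**Figure D5:**
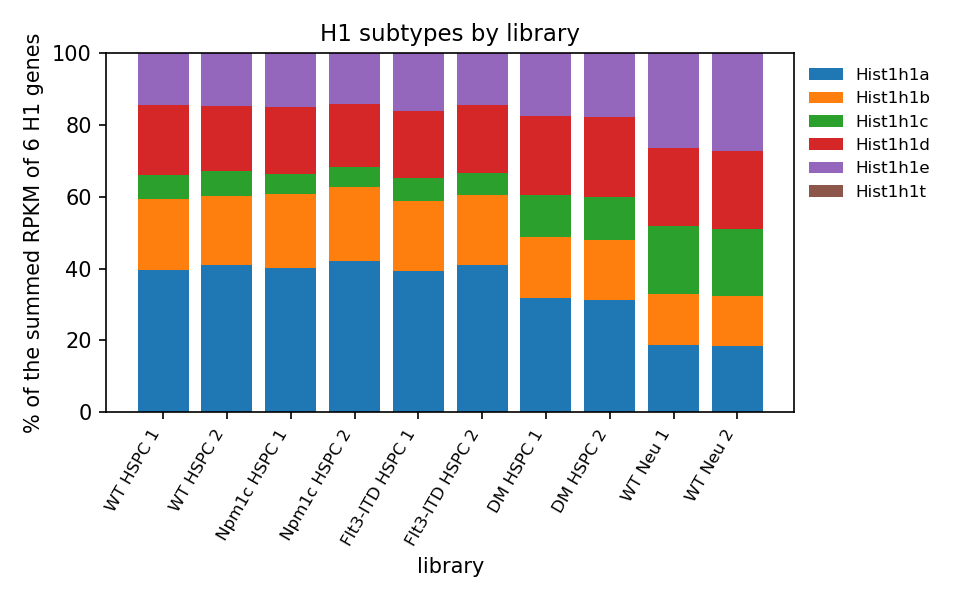
Share of each H1 gene in the summed RPKM of the 6 H1 genes, by library. Hist1h1a takes 39.3% to 42.2% in the WT, Npm1c and Flt3-ITD libraries, 31.3% and 31.9% in DM HSPC and 18.4% and 18.8% in WT Neu, while Hist1h1c takes 18.5% and 18.9% in WT Neu.

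Genes that act on histone messages were read from lists drawn up with earlier results of these data known. Of the 22 factors of histone transcription and message processing, 19 were tested. In DM HSPC 17 fell and 0 rose against WT, with a median relative change of -0.41, where 58.9% of all genes fell and 23.9% rose. With median-of-ratios scaling 15 fell and 2 rose, against 39.8% and 38.1%. Npat, the activator of histone gene transcription at the G1 to S transition, had 15.9 and 15.3 RPKM in WT, 14.9 and 14.9 in Flt3-ITD, 14.2 and 14.2 in Npm1c, 8.22 and 7.94 in DM HSPC, and 3.19 and 3.35 in WT Neu. Slbp, which binds the stem-loop, had 12.79 and 13.014 in WT, 11.02 and 10.28 in Flt3-ITD, 8.51 and 8.29 in Npm1c, 6.99 and 7.07 in DM HSPC, and 5.10 and 5.00 in WT Neu. Slbp was lower in Npm1c than in WT HSPC without overlap, with a relative change of -0.33, while the median member changed by 0.01. Lsm10, part of the U7 particle that directs cleavage of the message, had 4.62 and 5.13 in WT HSPC and 8.86 and 9.85 in WT Neu, and it rose. On the deposited scale the other 18 factors gave 17 falls and no rise in neutrophils, where 62.8% of all genes fell and 28.4% rose. With median-of-ratios scaling 14 of the 19 fell and 5 rose there, against 44.9% and 45.8% of all genes.

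The 30 S phase genes tested gave a like picture in DM HSPC, where 30 fell with a median relative change of -0.66, next to -0.75 for the members, and 58.9% of all genes fell. In neutrophils all 30 fell, where 62.8% of all genes did, with a median of -1.57, next to -0.78 for the members. Their summed level went from 1174 and 1186 RPKM in WT HSPC to 564.9 and 565.4 in DM HSPC and 227.0 and 229.2 in WT Neu. In Npm1c HSPC all 30 fell, with a median of -0.22, and all 25 G2 and mitosis genes, with -0.36, where 58.1% of all genes fell. With median-of-ratios scaling 18 and 21 of them fell, against 20.1%. In Flt3-ITD HSPC 21 of 30 and 21 of 25 fell, with medians of -0.08 and -0.18, where 31.3% of all genes fell and the median member was at 0.24. With median-of-ratios scaling 4 and 12 of them fell there, against 9.62%. For the interaction, 15 of 30 S phase genes and 8 of 25 G2 and mitosis genes lay below 0 past the threshold, with medians of -0.33 and -0.24, next to 52 of 60 members at -1.05 and 27.6% of all genes. The difference between the lists and the members was not tested.

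The genes listed as replication-independent histone genes lie outside the clusters, and most of their messages carry poly(A) tails. Of 9 tested, 6 fell and 0 rose in DM HSPC, with a median of -0.27, where 58.9% of all genes fell and 23.9% rose. With median-of-ratios scaling 5 fell and 3 rose, against 39.8% and 38.1%, so the direction of some depends on the scale. H2afx, whose transcript also holds the stem-loop motif, had 203.5 and 220.6 RPKM in WT and 93.0 and 95.7 in DM HSPC, a relative change of -0.83. Cenpa, the H3 form of centromeres, changed by -0.99. In neutrophils 7 of the 9 fell and 2 rose, with a median of -0.48, where 62.8% of all genes fell and 28.4% rose. With median-of-ratios scaling 6 fell and 3 rose there, against 44.9% and 45.8%. The 2 that rose on the deposited scale were H3f3a and H3f3b, which encode the replacement form of H3. They went from 37.9 and 39.6 to 67.0 and 67.0 RPKM and from 79.8 and 79.1 to 109.8 and 111.8, while all 10 clustered H3 genes fell. Of the 28 histone chaperones tested, 25 fell in DM HSPC, with a median of -0.35, against 58.9% of all genes, and 21 with median-of-ratios scaling, against 39.8%. In neutrophils 26 fell and 0 rose, with a median of -1.26, against 62.8% and 28.4% of all genes. With median-of-ratios scaling 22 fell and 6 rose there, against 44.9% and 45.8%.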

How the data were processed

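Directional RNA-seq libraries came from total RNA after ribosomal RNA was removed, per the labels' protocols. The authors deposited RPKM values per gene for each of 10 libraries. The submitters' processing notes name STAR 2.4.0, HTSeq, DiffBind and mm10, without roles. No source used here gives the read length or how reads with several matches were counted. Because RPKM values are whole multiples of 1 read per gene, reads of all 62 members were recovered from the deposited RPKM, with implied gene lengths whole within 0.05 base. Reads recovered in this way describe depth and, over the genes for which they were found, the gap between the 2 libraries of a group.

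Tests used limma 3.58.1 (R 4.3.3) with a variance trend on log2(RPKM + 0.5), for genes at or above 1 RPKM in at least 2 fitted libraries: the 8 HSPC libraries for 6 comparisons and all 10 for neutrophils. Fold changes are on this scale and understate those of low genes. P-values were adjusted over all genes tested by the Benjamini-Hochberg method, with a threshold of 0.05. They measure the spread between 2 libraries per group, pooled over the groups fitted, and the design text calls the libraries biological replicates. This spread was unequal. At a limit that read sampling alone passes for 5% of genes, the 2 libraries differed for 8.21% of genes in DM HSPC and 11.2% in WT Neu. The share was 22.1% in WT, 31.8% in Npm1c and 49.3% in Flt3-ITD HSPC. The p-values thus do not measure the spread within DM HSPC alone. In data simulated for DM against WT HSPC (9003 genes), 82.1% of 1.5-fold, 97.0% of 2-fold and 100% of 4-fold changes were recovered, and 11 unchanged genes were called. Few genes were changed there, as many up as down, and each gene had the same spread in all groups. In the real comparison 58.9% of genes fell and 23.9% rose, so these rates may not hold for it.

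Alternatives were other scalings (median of ratios, equal sums, quantiles), pseudocounts of 0.1 and 1, no filter or 1 RPKM in 4 libraries, no variance trend, the replicate number as a block, the Y-linked level as a covariate, and leaving out each library. The split by unique sequence was chosen after seeing the data. The members and lists were chosen with earlier results of these data known. Values in every library were given for the 10 highest members and, per comparison, for the 3 largest rises and falls past the threshold whose groups did not overlap and whose higher group reached 2 RPKM; other members were chosen after their values were seen. Sequence sharing was counted in GENCODE M21 transcripts as 50-base words on either strand.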

Additional observations from a re-analysis of the deposited data

Results flagged for a closer look

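The DM change differed from the sum of both single-mutant changes for most clustered histone genes, by limma's test of the interaction term. It lay below that sum for 52 of 60 genes and above it for 4, where 27.6% of all genes tested lay below and 39.2% above. The median interaction was -1.05 on the log2 scale relative to the median tested gene. Myeloid marker genes moved with the same term. Past the same threshold, 7 of 8 monocyte and macrophage genes lay above 0 and 1 below, against 39.2% and 27.6% of all genes. All 6 primary granule genes lay below 0, as did 8 of 14 late neutrophil genes tested, with 1 above. The part of such cells in the histone values was not tested.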

How the results depend on the processing

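Of 204 alternative values for the 14 counts of members past the threshold, 190 stayed within 1.5 times the reported count. Shares of all genes called were worked out only for the deposited scale and median-of-ratios scaling, so counts with the other settings have none beside them. In Npm1c HSPC the 5 rises became 11 with median-of-ratios and 8 with quantile scaling, and the 37 falls became 8, 17 and 15 with median-of-ratios, equal-sum and quantile scaling. In Flt3-ITD HSPC the 14 rises became 33 and 24 with median-of-ratios and equal-sum scaling, and the 6 falls became 2 with median-of-ratios scaling. Leaving out single libraries gave 6 to 17 rises (6 and 8 without the first and second WT library) and 2 to 6 falls (2 without the first WT library). In DM against WT HSPC quantile scaling gave 2 rises in place of 1, and leaving out a library gave 53 to 55 falls. In neutrophils 6 members rose with median-of-ratios and 2 with quantile scaling. Apart from the scaling itself, the cause was not tested.

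The median member in Npm1c HSPC, at 0.01, was -0.0644 with quantile scaling, -0.0184 with a pseudocount of 1, -0.12 with no filter, and -0.0444 to 0.075 when single libraries were left out. With no filter, relative changes turned for Hist1h4n (-0.12) and Hist1h2bp (-0.23) in DM against WT HSPC, and for Hist1h1e (-0.45), Hist2h4 (-0.50) and Hist1h2be (-0.58) in neutrophils. With equal-sum scaling, quantile scaling and a pseudocount of 1, Hist2h4 was at -0.006, -0.20 and -0.008 and Hist1h2be at -0.075, -0.18 and -0.0763 in neutrophils, and Hist1h2be was at -0.0419 without the first WT library. Hist1h1c in DM HSPC was at 0.16 with quantile scaling and between -0.0733 and 0.0045 without single libraries, the latter without the first DM library. Of 738 alternative values for 51 named members and comparisons, 695 kept direction and side of the threshold.

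Deviations of same-numbered libraries correlated with r of -0.111 to 0.107 over 10 pairs of groups, and the main fit did not pair them. Small correlations over all genes cannot show that such libraries had nothing else in common. With the replicate block, rises and falls numbered 12 and 6 in Flt3-ITD, 5 and 33 in Npm1c and 1 and 55 in DM against WT HSPC, 2 and 53 in DM against Npm1c, 1 and 58 in DM against Flt3-ITD, 4 and 53 for the interaction, and 0 and 58 in neutrophils. Shares of all genes called with the block are not given here, so these counts show only how the members' counts moved. Depth limits Hist1h2ba, with 0 to 4 reads.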
